A study of Mus musculus with 13 samples.

Results

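The genes described here are 34 listed genes of skeletal muscle and its precursor cells, measured in cultures labelled as dermal fibroblasts. They were taken by symbol from the 25655 genes of each table, and all 34 were present in all 13 libraries. They comprised 4 genes of satellite cells and myoblasts (Pax7, Myf5, Myod1 and Cdh15), 28 genes of differentiating myoblasts and myotubes, and Des and Mef2c, which were counted in neither stage. The libraries came from untreated primary cultures of fibroblasts from the skin of neonatal mice, and each title carried a number of its own, taken here as that of the animal. There were 6 wild-type (WT) cultures and 7 from mice with 2 copies of the Fbn1 allele G234D (Fbn1 G234D/G234D); Fbn1 encodes the microfibril protein fibrillin-1. Set 1 held WT cultures W1 to W4 and G234D cultures M1 to M4, and set 2 held W5, W6 and M5 to M7. Within set 1 the animal numbers formed an earlier group of lower numbers, W1, W2, M1 and M2, and a later group of higher numbers, M3, M4, W3 and W4. Within the earlier group the number of W1 lay apart from those of W2, M1 and M2, which were close together. Nothing in the labels says whether the animal numbers mark litters or culture dates. Levels are given as TPM, each gene's share of a library's transcripts scaled for transcript length, so levels of different genes can be set side by side.

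Skeletal muscle is built and repaired by satellite cells, which express the paired-box factor Pax7. Once activated they become myoblasts that express the basic helix-loop-helix (bHLH) factors Myf5 and Myod1, and then withdraw from the cell cycle, switch on myogenin (Myog) and fuse into multinucleated myotubes. Myotubes assemble sarcomeres of actin thin filaments and myosin thick filaments, cluster acetylcholine receptors and build the calcium release apparatus, at first with embryonic and perinatal isoforms. Neonatal skin lies over a thin sheet of striated muscle, the panniculus carnosus.

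M1 and M2, the 2 G234D cultures with the earlier animal numbers, held the highest levels of almost every one of the 34 genes. Both stood above all 11 other libraries for 29 of the 34 genes, against 11.9% of the 17124 genes detected in at least 1 library. M1 was the highest of all 13 libraries for 33 of the 34, with Pax7 as the exception, against 15.3% of the same genes. M2 was below M1 for all 34. Both were above W1 and W2, the WT cultures of the same animal group, for 31 of the 34 (all but Myf5, Myf6 and Pax7), against 26.5% of genes. The 4 G234D cultures of set 1 stood together above the 4 WT cultures for 0 of the 34, against 1.92% of genes. The members were chosen with this pattern known, so these counts are a description. In bulk RNA a larger number of muscle cells and more muscle RNA per cell cannot be told apart.

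**Figure D1:**
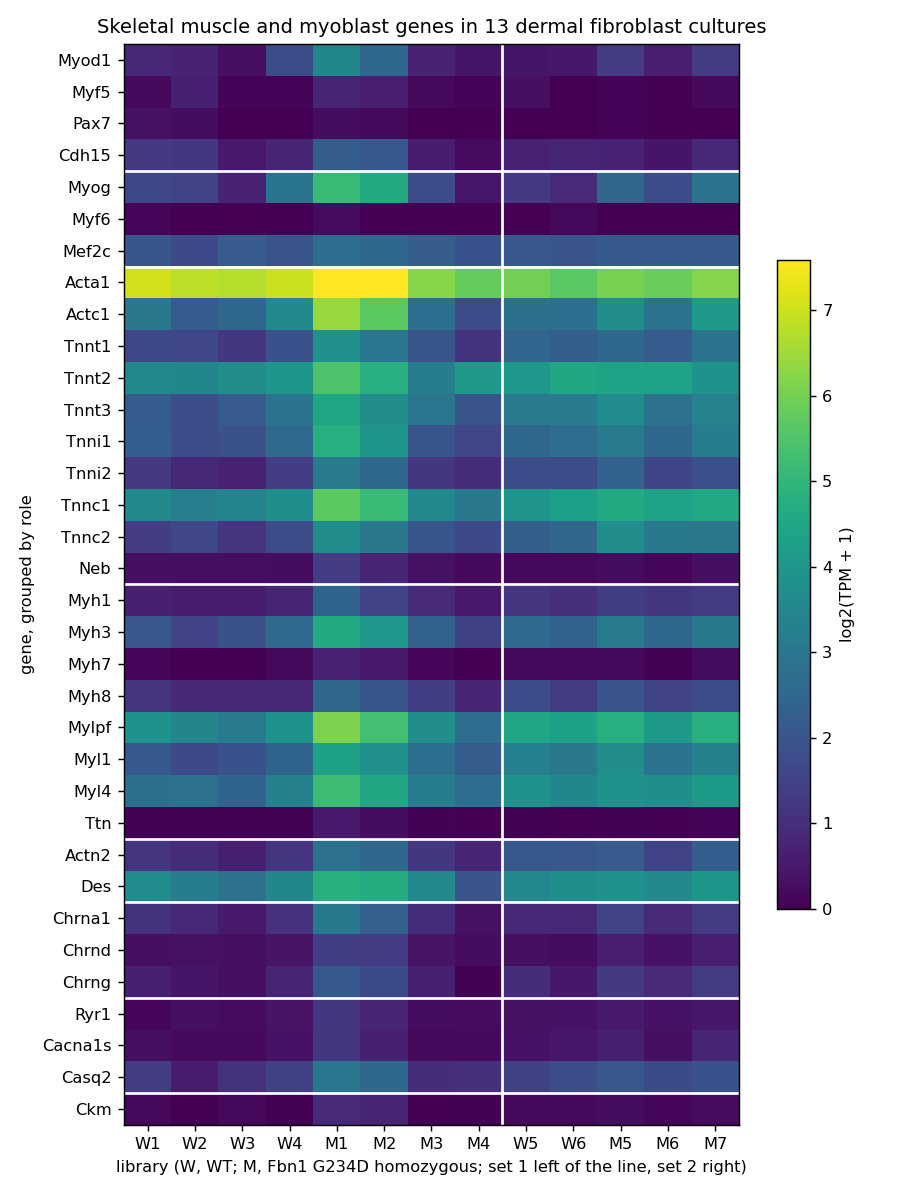
Level of each of the 34 genes, as log2(TPM + 1), by library (columns) and grouped by role (rows, separated by white lines), with set 1 left of the vertical line. M1 and M2 are the brightest columns for most genes, and Acta1 is the brightest row in all 13 libraries.

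The tables give no read totals, so the depth behind these values is unknown, and between 11741 and 12042 genes reached 1 TPM in each library. No 2 libraries held identical values, and their correlations on the log2 scale lay between 0.991 and 0.998. The labelled cell type had its markers in every library, with 12 fibroblast genes summing to at least 20499 TPM. Fbn1 itself differed between genotypes by 0.16 ± 0.12 (log2, G234D minus WT) in the earlier animals, and TPM cannot show which allele was transcribed.

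All 13 libraries carried transcripts of the listed genes. The summed level of the 34 genes was 227, 186, 176 and 245 TPM in W1 to W4 and 720, 523, 174 and 116 TPM in M1 to M4. In set 2 it was 197 and 190 TPM in W5 and W6 and 262, 196 and 262 TPM in M5 to M7. The sums of M1 and M2 were thus above every other library, M4 was the lowest of all, and the remaining libraries overlapped between the genotypes. Acta1 alone made up 24.5% to 61.3% of these sums, which also hold Des and Mef2c, made by other cell types too. Which cells made these transcripts was not tested. Of the 34 genes, 29 were above 0 in all 13 libraries and 14 reached 1 TPM in all 13. At least 1 TPM was reached by 28 genes in M1 and 25 in M2, and by 15 to 23 genes in the others. Myh7, Ckm, Myf5, Myf6, Pax7 and Ttn stayed under 1 TPM in every library. Neb, Ryr1 and Cacna1s reached 1 TPM in M1 alone, and Chrnd in M1 and M2 alone. A requirement of 1 TPM in at least 6 libraries was met by 21 of the 34 genes.

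Of the satellite cell and myoblast genes, Pax7 and Myf5 stayed under 1 TPM in every library, while Myod1 and Cdh15 were higher in M1 and M2. Pax7, which marks satellite cells, was at 0.278, 0.189, 0 and 0 TPM in W1 to W4 and at 0.183, 0.123, 0 and 0 TPM in M1 to M4. In set 2 it was detected only in M5, at 0.0449 TPM, and was listed at 0 in W5, W6, M6 and M7. Pax7 was therefore seen in all 4 libraries of the earlier animals, of both genotypes, and was listed higher in W1 and W2 than in M1 and M2. These values lie near 0 at unknown depth, and W2 and M1 were almost equal (0.189 and 0.183 TPM), so this order is uncertain. Myf5, the first of the myogenic bHLH factors to appear in the embryo, was between 0.542 and 0.719 TPM in W2, M1 and M2 and at most 0.239 TPM in the other 10 libraries.

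Myod1, the factor that commits cells to the muscle lineage, was at 0.822, 0.642, 0.235 and 2.41 TPM in W1 to W4 and at 10.3, 4.97, 0.650 and 0.353 TPM in M1 to M4. It was at 0.335 and 0.400 TPM in W5 and W6 and at 1.49, 0.546 and 1.55 TPM in M5 to M7. M1 and M2 were highest, W4 came next, and the 3 G234D cultures of set 2 lay above the 2 WT cultures of that set. Cdh15, which encodes M-cadherin, an adhesion molecule of satellite cells and myoblasts, was at 1.41, 1.34, 0.438 and 0.766 TPM in W1 to W4 and at 3.69, 3.25, 0.521 and 0.169 TPM in M1 to M4. Its level in set 2 was between 0.357 TPM (M6) and 0.840 TPM (M7), with the genotypes overlapping. For Cdh15 the earlier WT cultures W1 and W2 were the next highest after M1 and M2.

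Myog, the bHLH factor that drives differentiation, showed the widest range of the regulators. It was at 2.11, 1.94, 0.659 and 6.79 TPM in W1 to W4 and at 33.9, 23.5, 2.35 and 0.367 TPM in M1 to M4. Its set 2 levels were 1.42 and 0.897 TPM in W5 and W6 and 4.67, 2.33 and 6.35 TPM in M5 to M7. M1 was 16.7 times and M2 11.6 times the mean of W1 and W2, W4 was the highest of the remaining libraries, and M4 was the lowest of all 13. Every G234D culture of set 2 was above both WT cultures of that set. The ratio of Myog to Myod1 lay between 1.04 (M4) and 4.73 (M2), and M1, at 3.29, was inside the range of the WT libraries, 2.24 to 4.23. Myf6, a late bHLH factor of mature fibres, was detected in W1, M1 and W6 only, at 0.0807, 0.169 and 0.118 TPM. Mef2c, a MADS-box partner of the bHLH factors that other mesenchymal cells also express, ranged only from 2.21 TPM (W2) to 5.70 TPM (M1), with M2 at 4.89 TPM.

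The myogenic bHLH factors bind E-boxes, whose letters are CANNTG. The promoters of 5 genes are shown to set the regulator Myog beside genes of other roles: 2 acetylcholine receptor subunits, a myosin light chain and Acta1, the most abundant member, which was only 1.55 times higher in M1 than in the earlier WT cultures. Each sequence runs from 250 bases before to 50 bases after the RefSeq start on GRCm38.p6 (mm10), 5′ to 3′ on the gene's strand, with every E-box in capitals. The windows were chr1:134289754-134290053 (plus strand) for Myog, chr2:73580289-73580588 (minus strand) for Chrna1, chr1:87205561-87205860 (plus strand) for Chrng, chr7:127211358-127211657 (plus strand) for Mylpf and chr8:123894726-123895025 (minus strand) for Acta1. The Chrng and Mylpf windows lay inside the genes' longer GENCODE spans.
Myog: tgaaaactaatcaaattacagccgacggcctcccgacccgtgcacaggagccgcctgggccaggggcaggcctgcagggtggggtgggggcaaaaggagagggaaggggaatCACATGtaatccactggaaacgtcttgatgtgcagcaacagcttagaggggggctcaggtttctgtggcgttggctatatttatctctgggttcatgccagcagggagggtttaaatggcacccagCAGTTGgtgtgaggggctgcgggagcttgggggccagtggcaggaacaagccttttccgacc
Chrna1: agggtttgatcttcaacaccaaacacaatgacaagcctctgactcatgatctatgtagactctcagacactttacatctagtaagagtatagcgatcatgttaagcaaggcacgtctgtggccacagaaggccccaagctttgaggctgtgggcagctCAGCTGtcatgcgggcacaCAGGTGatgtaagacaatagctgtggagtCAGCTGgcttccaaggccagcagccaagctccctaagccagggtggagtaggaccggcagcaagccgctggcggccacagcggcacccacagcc
Chrng: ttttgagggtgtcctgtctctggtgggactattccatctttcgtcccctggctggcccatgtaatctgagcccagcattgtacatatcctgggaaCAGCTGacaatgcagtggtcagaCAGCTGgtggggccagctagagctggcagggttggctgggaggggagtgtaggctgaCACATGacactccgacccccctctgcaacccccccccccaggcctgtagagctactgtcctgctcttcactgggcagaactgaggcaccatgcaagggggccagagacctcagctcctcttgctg
Mylpf: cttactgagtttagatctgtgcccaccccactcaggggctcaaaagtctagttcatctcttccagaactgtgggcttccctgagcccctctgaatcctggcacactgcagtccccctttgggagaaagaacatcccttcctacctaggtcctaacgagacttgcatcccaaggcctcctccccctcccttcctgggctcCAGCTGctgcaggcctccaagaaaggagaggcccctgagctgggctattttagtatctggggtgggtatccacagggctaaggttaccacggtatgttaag
Acta1: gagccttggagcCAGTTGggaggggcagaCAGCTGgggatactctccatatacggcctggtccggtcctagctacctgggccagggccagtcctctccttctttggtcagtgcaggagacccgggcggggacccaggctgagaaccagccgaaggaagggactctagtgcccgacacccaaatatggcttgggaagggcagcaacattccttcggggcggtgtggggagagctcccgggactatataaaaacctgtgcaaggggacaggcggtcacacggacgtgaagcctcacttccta

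RefSeq promoters were matched for 28 of the 34 genes, with 33 starts among them. Tnnt3, Tnni2, Myod1, Myf6, Neb and Chrnd were not matched. At least 1 CANNTG was found in 81.8% of these 33 promoters and in 72.3% of all 32851 promoters of the same length. CAGCTG, one of the forms covered by CANNTG and the same on both strands, was in 33.3% of the members' promoters and 16.3% of all promoters. CACCTG, read on both strands and also covered by CANNTG, was in 27.3% and 20.2%. The MEF2 motif, taken strictly as YTAWWWWTAR (Y for C or T, W for A or T, R for A or G), was in 12.1% and 3.19%. Runs that depart from these letters, such as ctatatttat in the Myog promoter, were not counted. Chrna1 held E-boxes starting at positions -92, -73 and -44, Chrng at -155, -132 and -75 and Acta1 at -238 and -221. Whether these positions go with the levels of the members was not tested. A match is a run of letters and no evidence of binding.

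Among the thin filament genes, Acta1 and Actc1 behaved differently. Acta1, which encodes skeletal alpha-actin, was the most abundant member in all 13 libraries, at 133, 114, 106 and 124 TPM in W1 to W4 and 191, 189, 74.4 and 54.2 TPM in M1 to M4. It was at 61.2 and 49.6 TPM in W5 and W6 and at 64.1, 58.3 and 73.6 TPM in M5 to M7. M1 and M2 were highest, but only 1.55 and 1.53 times the mean of W1 and W2, and M3 and M4 were both below all 4 WT cultures of their set. Actc1, the cardiac alpha-actin that embryonic skeletal muscle also uses, was at 7.12, 3.58, 4.80 and 11.2 TPM in W1 to W4 and at 84.7, 50.4, 5.83 and 2.30 TPM in M1 to M4. In set 2 it was at 6.0 and 5.80 TPM in W5 and W6 and at 12.4, 6.46 and 15.7 TPM in M5 to M7. For Actc1, M1 was 15.8 times and M2 9.42 times the mean of W1 and W2, and the groups of set 2 did not overlap. Acta1 made up 58.5%, 61.3%, 60.2% and 50.8% of the summed level of the 34 genes in W1 to W4, against 26.6% in M1, 36.1% in M2, 42.8% in M3 and 46.7% in M4. In set 2 this share was between 24.5% and 31.1%, in both genotypes.

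The troponins, which carry calcium control on the thin filament, were led by Tnnc1, the slow and cardiac troponin C, and Tnnt2, the cardiac troponin T that fetal skeletal muscle also expresses. Tnnc1 was at 49.7 TPM in M1 and 33.5 TPM in M2 and between 7.14 TPM (M4) and 23.9 TPM (M5) elsewhere. Tnnt2 was at 43.0 and 26.2 TPM in M1 and M2 and between 8.25 TPM (M3) and 22.1 TPM (W6) in the others. Both genes therefore had M1 and M2 on top. The slow isoform genes Tnnt1 and Tnni1 were at 13.3 and 26.2 TPM in M1, and at most 6.62 and 8.08 TPM outside M1 and M2. The fast isoform genes Tnnt3 and Tnni2 were at 21.6 and 8.01 TPM in M1, and at most 11.8 and 4.23 TPM outside M1 and M2. Tnnc2, the fast troponin C, was at 12.5 TPM in M1, 7.19 TPM in M2, and 12.2, 7.47 and 6.98 TPM in M5 to M7. It was the only troponin for which M2 was not above all the other libraries, and its 3 G234D levels in set 2 all exceeded W5 and W6, at 3.91 and 4.68 TPM. A share was taken over the summed TPM of Tnnt1, Tnni1, Tnnc1, Tnnt3, Tnni2 and Tnnc2, with Tnnt2 left out. Of this sum the fast genes made up 32.1% in M1 and 30.8% in M2, inside the range of the other libraries, 28.0% (W1) to 43.6% (M5). Neb, the giant protein along the thin filament, was at 1.61 TPM in M1, 0.735 TPM in M2 and at most 0.275 TPM elsewhere.

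Among the myosin heavy chains of the thick filament the embryonic Myh3 was the most abundant in every library. It was at 3.20, 1.86, 2.66 and 5.06 TPM in W1 to W4 and at 23.9, 15.5, 4.28 and 1.79 TPM in M1 to M4. Its levels in set 2 were 5.10 and 4.23 TPM in W5 and W6 and 7.54, 4.96 and 7.31 TPM in M5 to M7. M1 and M2 were 9.45 and 6.14 times the mean of W1 and W2, and M6 lay between W5 and W6. The perinatal Myh8 reached 4.73 TPM in M1 and 3.08 TPM in M2, the fast Myh1 reached 4.45 and 1.89 TPM, and the slow Myh7 reached 0.704 and 0.419 TPM. With Myh2 and Myh4 added, Myh3 made up 70.3% of the TPM of the 6 heavy chains in M1 and 73.3% in M2. It made up 72.9% in W4 and 51.8% to 63.7% in the other 10 libraries. Myh4, the fast heavy chain of adult glycolytic fibres, had its smallest shares in M1 (0.523%) and M2 (1.29%), with 2.86% to 9.23% elsewhere. Its level, 0.178 TPM in M1 and 0.273 TPM in M2, was within the range of the other libraries, 0.146 to 0.849 TPM. These heavy chain levels are uncertain, because 26.7% of the 50-base windows of the Myh1 transcript, 22.2% of Myh7, 21.4% of Myh8 and 4.81% of Myh3 occur letter for letter in other genes, mostly other myosins.

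**Figure D2:**
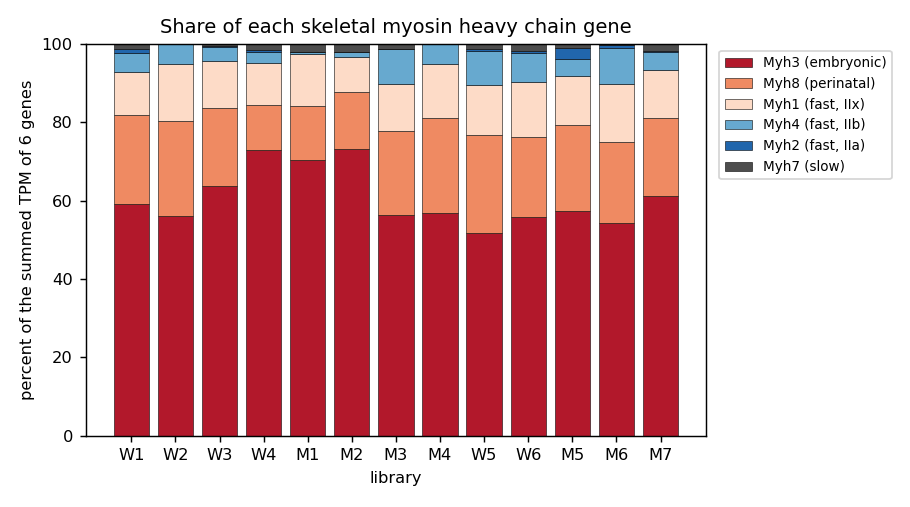
Share of each of 6 skeletal myosin heavy chain genes in their summed TPM (vertical axis, percent), by library (horizontal axis). The embryonic Myh3 is the largest part of every bar, from 51.8% in W5 to 73.3% in M2, and the Myh4 part is thinnest in M1 and M2.

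Mylpf, the regulatory light chain of fast muscle, was the most abundant thick filament gene in every library but M4, where Myl4 was at 5.63 TPM. Mylpf was at 13.5, 9.92, 8.0 and 13.7 TPM in W1 to W4 and 67.3, 38.6, 12.6 and 5.52 TPM in M1 to M4. It was at 21.1 and 19.3 TPM in W5 and W6 and at 25.9, 15.8 and 26.0 TPM in M5 to M7. M1 and M2 stood apart, all 5 libraries of set 2 lay above all 4 WT libraries of set 1, and the genotypes overlapped in set 2. The embryonic and atrial light chain gene Myl4 was at 36.0 and 22.4 TPM in M1 and M2 and at most 16.6 TPM elsewhere. Myl1, an essential light chain of fast fibres, was at 19.4 and 13.1 TPM against at most 12.3 TPM, although 23.4% of its 50-base windows also occur in the pseudogene Mylf-ps. Ttn, the giant spring of the sarcomere, was at 0.465 TPM in M1 and 0.188 TPM in M2 and at most 0.0454 TPM in the others.

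At the Z-disc and in the cell's filament network the picture was alike. Actn2, the alpha-actinin of the Z-disc, was at 6.14 and 4.74 TPM in M1 and M2, between 0.581 and 1.29 TPM in the rest of set 1 and between 1.88 and 3.77 TPM in set 2. Des, which encodes desmin and is also made by smooth muscle and pericytes, was at 27.4 and 24.9 TPM in M1 and M2 and between 3.04 TPM (M4) and 15.1 TPM (M7) elsewhere. Its ratio of M1 to the earlier WT mean, 2.76, was among the smaller of the members.

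Among the acetylcholine receptor genes, only those of the gamma and epsilon subunits tell the fetal from the adult receptor, and the epsilon gene was close to 0. Chrna1, the alpha subunit, was at 1.14, 0.836, 0.474 and 1.11 TPM in W1 to W4 and at 7.42, 3.98, 0.993 and 0.275 TPM in M1 to M4. It was at 0.795 and 0.781 TPM in W5 and W6 and at 1.92, 0.927 and 1.48 TPM in M5 to M7. Both M1 and M2 were far above the rest of set 1, and the 3 G234D cultures of set 2 were above the 2 WT cultures. The delta subunit gene Chrnd was at 1.65 and 1.55 TPM in M1 and M2 and at most 0.565 TPM elsewhere. Chrng, whose gamma subunit belongs to the fetal receptor, was at 3.24 and 2.24 TPM in M1 and M2 and between 0.0342 TPM (M4) and 1.48 TPM (M7) elsewhere. The gene of the epsilon subunit that replaces gamma in the adult receptor, Chrne, was between 0 and 0.136 TPM in the 13 libraries. It was at 0.0662 TPM in M1 and 0 in M2. Chrng was above Chrne in every library but M4, where Chrne was at 0.136 TPM.

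The calcium release genes were low but ordered the same way. Casq2, a calcium store protein of slow and cardiac muscle, was at 6.97 and 4.85 TPM in M1 and M2 and between 0.499 TPM (W2) and 3.13 TPM (M5) elsewhere. Ryr1, the release channel of the sarcoplasmic reticulum, was at 1.32 and 0.738 TPM in M1 and M2 and at most 0.452 TPM elsewhere. Cacna1s, the voltage sensor that opens it, was at 1.32 TPM in M1 and 0.577 TPM in M2, and M7, at 0.718 TPM, was above M2. Ckm, the muscle creatine kinase of mature fibres, was at 0.858 and 0.712 TPM in M1 and M2, at most 0.192 TPM elsewhere, and was listed at 0 in W2 and M3.

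The division into early and late members was then compared between libraries. The summed level of the 4 satellite cell and myoblast genes was 2.66, 2.74, 0.726 and 3.22 TPM in W1 to W4 and 14.9, 8.89, 1.29 and 0.575 TPM in M1 to M4. It was 1.19 and 1.13 TPM in W5 and W6 and 2.28, 0.904 and 2.52 TPM in M5 to M7. Relative to the mean of W1 and W2, 2.70 ± 0.0593 TPM (SD, n = 2), this sum was 5.51 times higher in M1 and 3.29 times higher in M2, and Myod1 made up most of it in both. The mean of M1 and M2 was 4.40 times that of W1 and W2, but 2.16 times without Myod1 and 1.78 times from mean log2(TPM + 1). The sum of the myotube genes without Acta1 (27 genes) was 76.9, 58.9, 59.6 and 104 TPM in W1 to W4 and 481, 295, 83.1 and 55.4 TPM in M1 to M4. It was 121 and 123 TPM in W5 and W6 and 178, 123 and 167 TPM in M5 to M7. Against the earlier WT mean of 67.9 ± 12.7 TPM (SD, n = 2) it was 7.08 times higher in M1 and 4.35 times higher in M2. With Acta1 included (all 28 genes) these ratios were 3.51 and 2.53.

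**Figure D3:**
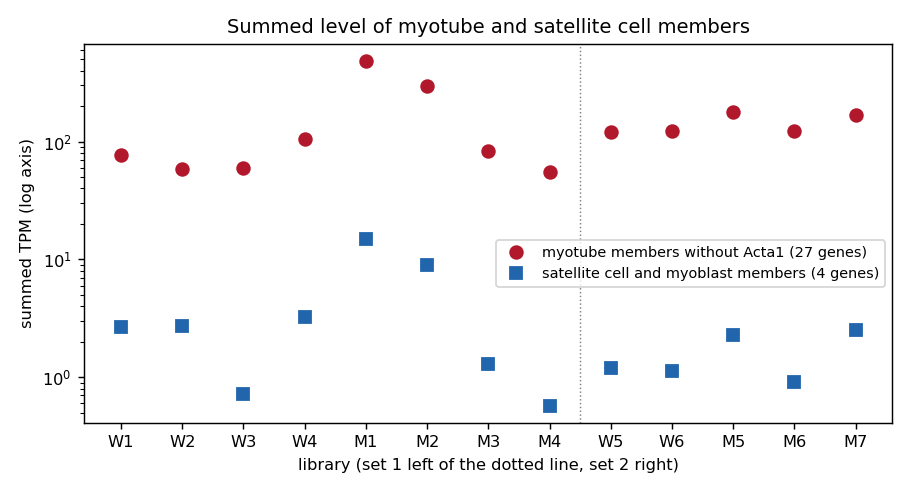
Summed TPM (log axis) of the 27 myotube genes without Acta1 (circles) and of the 4 satellite cell and myoblast genes (squares), by library. Both sums are highest in M1 (481 and 14.9 TPM) and M2 (295 and 8.89 TPM), and the gap between circles and squares is wider in set 2 than in W1, W2 and W4.

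The ratio of myotube TPM without Acta1 to satellite cell and myoblast TPM was 28.9, 21.5, 82.1 and 32.3 in W1 to W4 and 32.3, 33.2, 64.6 and 96.5 in M1 to M4. In set 2 it was 102 and 109 in W5 and W6 and 78.0, 136 and 66.2 in M5 to M7. The order of the libraries by this ratio depended on 2 genes. With Acta1 included it was 78.9, 63.0, 228 and 70.9 in W1 to W4 and 45.2, 54.4, 122 and 191 in M1 to M4, with M1 and M2 the lowest of the 13. Without Acta1 and Myod1, a choice made after the values were seen, it was 41.9, 28.0, 122 and 128 in W1 to W4 and 105, 75.3, 130 and 251 in M1 to M4, with M1 and M2 above W1 and W2. Between the WT cultures, set 2 had 1.63 times the myotube sum of set 1 without Acta1 but 0.914 times with it, and 0.496 times the satellite cell and myoblast sum. The myotube genes other than Acta1, Myog and Myf6 together stood at 13.2 and 11.6 times the Myog level in M1 and M2, the lowest of the 13, followed by W4 at 14.3 times and then by 25.3 to 150 times in the rest.

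For the 31 members above 0 in both W1 and W2 (all but Myh7, Ckm and Myf6), the ratio of M1 to the mean of W1 and W2 ran from 0.781 (Pax7) to 16.7 (Myog), with a median of 6.93. After Pax7 the smaller ratios were those of Acta1 (1.55), Myf5 (2.00), Mef2c (2.17), Cdh15 (2.68) and Des (2.76). Over all 34 the ratio of M2 to M1 ran from 0 (Myf6) to 0.986 (Acta1), with a median of 0.619. In set 2 the ratio of the G234D mean to the WT mean, for the 31 members above 0 in both W5 and W6, ran from 0.906 (Myh7) to 3.85 (Myog) and was above 1 for 27 of them.

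Genotype was tested with limma on log2(TPM + 1) over all genes that passed the filter, with Benjamini-Hochberg adjustment, and differences are given as G234D minus WT with their standard errors. With both sets in the fit and a term for the set, 0 of 11942 genes passed an adjusted p of 0.05 (0%), and 504 higher and 265 lower genes had an unadjusted p under 0.05. Of the 34 members 21 were tested, 0 passed and all 21 differences were positive, with a median of 0.63 against 0.011 over all genes (56.6% positive). Chrna1 and Myh1 met the filter of 1 TPM in 6 libraries only with M1 and M2 counted. Among the members, Tnnc2, Myl1, Mef2c and Myh8 had an unadjusted p under 0.05, a mark passed upward by 4.22% of all genes. Within set 1 alone 0 of 11905 genes passed (0%; 373 higher and 348 lower at an unadjusted p under 0.05), 20 of 21 members were positive, against 49.8% of all genes, and their median was 0.88. Over both sets Myog differed by 1.27 ± 0.70 and Acta1 by 0.019 ± 0.27. Without M1 and M2, chosen to be left out with their levels known, 0 genes passed, 14 of 20 tested members were positive and their median was 0.090.

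In the earlier animals of set 1 (2 WT and 2 G234D cultures, fitted with the later animals so that all 8 share one spread), 467 of 11905 genes passed (3.92%), 288 higher and 179 lower. Of the 21 members tested, 14 were among the higher genes, against 2.42% of all genes, and all 21 were positive, against 47.2%, with a median of 1.81 against -0.011 over all genes. Chrna1, Cdh15, Myh8, Actn2 and Tnni2, all among the 14, met the set 1 filter of 1 TPM in 4 libraries only with M1 and M2 counted. Part of this count thus comes from members let in by the libraries in which they were high. The largest differences were those of Actc1 (3.44 ± 0.57), Myog (3.27 ± 0.81), Myh3 (2.55 ± 0.41), Tnni1 (2.33 ± 0.34) and Myl1 (2.21 ± 0.28). Myog did not pass, and neither did Des (1.33 ± 0.54), Mylpf (2.04 ± 0.47), Tnnt1 (1.78 ± 0.40), Tnnt2 (1.60 ± 0.33), Tnnt3 (2.12 ± 0.44) or Acta1 (0.62 ± 0.15). Because this contrast is the one in which the members stand out, these counts describe them and support nothing further. The number passing depended on single libraries: without M1 68 genes and 0 members passed, without W2 87 genes and 1 member, and without W1 165 genes and 5 members. With M2 left out the counts were 436 genes and 13 members, and with M3 or M4 left out 856 or 858 genes and 18 members in each case.

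In the later animals the members gave the opposite balance. Of 21 tested, 8 were positive and 13 negative, where 52.9% of all genes were positive, the median was -0.25 against 0.0090 over all genes, and 0 members passed, against 0.269% of all genes (32, of which 11 were higher). Acta1 had the largest member difference, at -0.84 ± 0.15, followed by Actc1 at -0.82 ± 0.57 and Myog at -0.75 ± 0.81. The signs here rested on single cultures: without W4 12 of 21 members were positive, and without M4 13 of 22. By levels, M3 and M4 were both below W3 and W4 for Acta1 and Casq2, 2 of the 34 genes, against 15.4% of all genes, and both above for Myf5 alone, against 18.5%.

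Set 2 offers cultures in which the levels of M1 and M2 play no part, but the members were chosen with results over both sets known. Its counts are therefore a description. Myod1 and Chrna1 met the filter of 1 TPM in 2 libraries only through the G234D cultures M5 and M7. Myog and Chrng reached 1 TPM in W5 but not in W6, so they too met it only with G234D cultures counted. Of 23 members tested, 21 were positive, with a median of 0.23 against 0.030 over all genes (62.4% positive), and 0 passed, against 0.00829% of all genes (1 of 12060). The larger differences were those of Myog (1.27 ± 0.32), Tnnc2 (0.87 ± 0.21), Actc1 (0.78 ± 0.36) and Myod1 (0.65 ± 0.25), while Tnnt2 (-0.067 ± 0.20) and Actn2 (-0.081 ± 0.22) were negative. The 3 G234D cultures were above both WT cultures for 9 of the 34 genes, against 13.6% of all genes: Actc1, Tnnc1, Tnnc2, Myh1, Myod1, Myog, Chrna1, Chrnd and Mef2c.

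**Figure D4:**
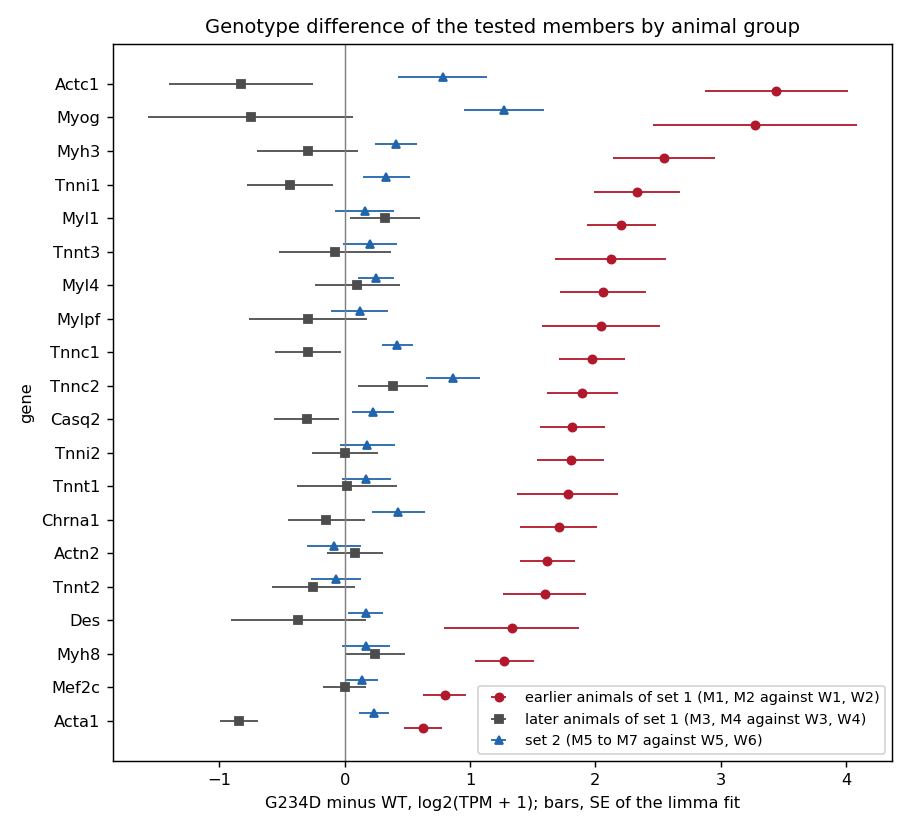
G234D minus WT on the log2(TPM + 1) scale (horizontal axis, bars are SE of the limma fit) for the members tested in all 3 comparisons (vertical axis). Circles show the earlier animals of set 1, squares the later animals and triangles set 2. The circles reach 3.44 for Actc1 and 3.27 for Myog, while the squares and triangles lie nearer to 0 for most genes.

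The difference between earlier and later animals was itself tested as an interaction in set 1, where 334 genes passed (2.81%). Counted with its sign, the genotype difference was larger in the earlier animals for 223 of them (1.87%). Of the 21 members, 6 were among these, all with the larger difference in the earlier animals: Tnni1 (2.77), Tnnc1 (2.26), Casq2 (2.12), Tnni2 (1.80), Actn2 (1.53) and Acta1 (1.47). For Acta1 the difference was 0.62 in the earlier animals and -0.84 in the later ones, so it was of opposite sign and greater size in the latter. Tnni2 and Actn2 met the set 1 filter only with M1 and M2 counted. The members and the division into animal groups were taken with this pattern known, so the count is a description. It also depended on single libraries: 0 members passed without M1, W2 or W4, 1 without W1, 3 without M4, 7 without M2 or W3 and 11 without M3. The number of all genes passing was 46, 69 and 61 without M1, W2 or W4, 75 without W1 and 674 without M3. The interaction between set and genotype passed for 0 of 11942 genes (450 and 241 had an unadjusted p under 0.05 in the 2 directions), and 19 of 21 members had the smaller genotype difference in set 2, where 59.1% of all genes had the larger one in set 2.

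Across the 13 libraries, with each gene centred within its set, the tested members followed each other closely. The correlation of a gene with the mean of the 19 tested myotube genes (itself left out) was lowest for Acta1 (r = 0.766), had a median of 0.962 and was highest for Tnni1 (r = 0.992). Without M1 and M2, over the other 11 libraries, the median was 0.806, Myh3 was highest (r = 0.941) and Tnnt2 lowest (r = -0.282). These correlations describe libraries whose TPM share one scaling, and M1 and M2 weigh heavily in the first of them.

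Of 11921 other genes that passed the filter, the 15 most like the mean of the myotube genes over the 13 libraries had r from 0.948 to 0.988. Of these 15, 3 were in the lists of further muscle genes: Atp2a1 (r = 0.980), the calcium pump of fast fibres, Mymk (r = 0.975), the fusion protein myomaker, and Mybph (r = 0.974), a myosin-binding protein. Mymk was at 20.1 and 11.7 TPM in M1 and M2 and at most 4.85 TPM elsewhere. Atp2a1 was at 5.51 and 3.87 TPM against at most 2.19 TPM, and Mybph at 15.2 and 10.8 TPM against at most 5.37 TPM. The other 12 were in none of the lists and included the most alike, Pak1ip1 (r = 0.988, 81.8 and 75.2 TPM against 62.9 to 72.0 TPM), Fez1 (r = 0.981), the lysosomal protease gene Ctsl (r = 0.973), Crip2 (r = 0.953) and the neural adhesion gene L1cam (r = 0.948). L1cam was at 12.5 and 11 TPM in M1 and M2 and at most 3.30 TPM elsewhere, and Crip2 at 101 and 78.7 TPM against at most 51.3 TPM.

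Muscle genes outside the 34 were followed in 7 further lists, chosen by function. In the earlier animals 2.42% of all genes rose and 1.5% fell, by the same test. Of 37 other sarcomere genes, 9 were tested in the earlier animals, 9 were positive and 4 rose (median 0.50): Mybph (2.38 ± 0.32), Pdlim3 (0.99 ± 0.15), Cavin4 (0.86 ± 0.20) and Actn3 (0.79 ± 0.19). Tpm1 and Tpm2, tropomyosins that fibroblasts also make in quantity, differed by 0.17 ± 0.088 and 0.036 ± 0.068. Of 14 other calcium release genes, 8 were tested, all were positive and 2 rose (median 0.28), Atp2a1 (1.92 ± 0.24) and Srl (0.75 ± 0.17), with the junctional Jph2 at 0.34 ± 0.28 and the channel subunit Cacna2d1 at 0.21 ± 0.11. Atp2a1 met the set 1 filter only with M1 and M2 counted. Of 8 fusion genes, 5 were tested and 1 rose, the adhesion gene Jam2 (0.69 ± 0.14), with Cdh2 at 0.33 ± 0.11 and Kirrel at -0.080 ± 0.067. Mymk, at 2.61 ± 0.55, did not pass. Mymx, whose small protein acts with myomaker in fusion, was at 4.17 and 3.50 TPM in M1 and M2 and at most 1.45 TPM elsewhere, below the filter.

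The remaining lists held few genes that passed. Of 17 other regulators, 10 were tested and 1 rose, the early paired-box gene Pax3 (0.84 ± 0.12), with a list median of 0.11, and with Tcf12 at -0.11 ± 0.066 and Mef2d at 0.046 ± 0.075. Of 17 other satellite cell genes, 13 were tested, the engulfment receptor Megf10 rose (0.56 ± 0.13) and the Notch target Hey1 fell (-0.79 ± 0.16), with a median of 0.17, Sdc3 at 0.21 ± 0.081 and Spry1 at 0.30 ± 0.094. None of the 2 tested of 8 other neuromuscular junction genes passed, with Chrnb1 at 0.45 ± 0.12 and Lrp4 at 0.0016 ± 0.14. None of the 6 tested of 15 muscle metabolism genes passed, with Fabp3 at 0.46 ± 0.28 and Eno3 at 0.15 ± 0.10. In the later animals 0 of the genes tested in these 7 lists passed, against 0.269% of all genes.

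Actc1, Tnnt2, Tnnc1, Myl4, Myh7 and Casq2 are also genes of heart muscle, so a list of 12 cardiac genes was examined. Its summed level was 4.73 and 4.88 TPM in M1 and M2 and 2.20 to 3.47 TPM elsewhere, and most of it was the natriuretic peptide gene Nppb, at 3.29 and 3.42 TPM against at most 1.96 TPM. Pln was listed at 0 in all 13 libraries, Myh6 was at 0 in 12 of them, including M1 and M2, and the cardiac troponin I gene Tnni3 was lowest in M1.

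Markers of further cell types differed between the same libraries. The shares over all genes in the earlier animals were 2.42% that rose and 1.5% that fell. A list of 14 Schwann cell and melanocyte genes summed to 142 and 143 TPM in M1 and M2 and to 26.0 to 51.8 TPM elsewhere, and in the earlier animals 6 of 8 tested rose, led by Ngfr (2.63 ± 0.17), Sox10 (2.31 ± 0.12) and Cdh19 (2.28 ± 0.14). M1 and M2 held the highest 2 values for those 6 genes, while the melanocyte gene Dct was at 0 and 0.0466 TPM in them. A list of 15 macrophage and leukocyte genes summed to 172 and 229 TPM in M1 and M2, 103 TPM in W1, 37.5 to 50.5 TPM in the other 5 libraries of set 1 and 111 to 176 TPM in set 2, and 2 of 9 tested genes rose, Laptm5 (1.30 ± 0.26) and Cd68 (1.06 ± 0.20). For this list M2 was above M1, the reverse of all 34 muscle genes. A list of 12 fibroblast genes summed to 20499 and 22630 TPM in M1 and M2 and to 23441 to 31533 TPM elsewhere, and 3 of 12 tested fell, Pdgfra (-0.997 ± 0.12), Twist1 (-0.34 ± 0.056) and Prrx1 (-0.28 ± 0.048). The 9 endothelial genes summed to 4.68 and 3.75 TPM in M1 and M2 and to 3.68 to 5.19 TPM elsewhere. The 15 smooth muscle and pericyte genes summed to 11143 and 12435 TPM in M1 and M2 and to 8080 to 11911 TPM elsewhere. The 10 keratinocyte genes summed to 6.93 and 4.57 TPM in M1 and M2 and to 2.68 to 8.95 TPM elsewhere, and the 7 adipocyte genes to 57.9 and 61.7 TPM, against 57.7 to 191 TPM. The part of other cell types in the levels of the muscle genes was not tested.

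**Figure D5:**
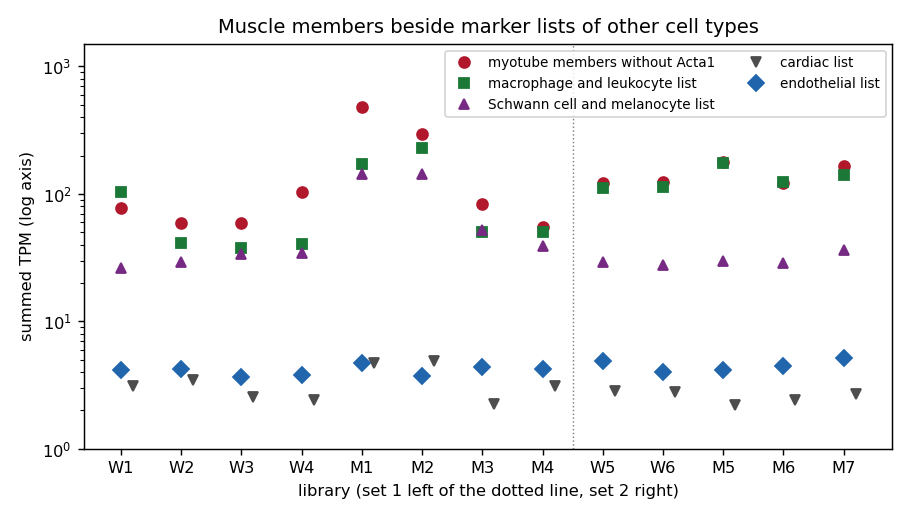
Summed TPM (log axis) of the 27 myotube genes without Acta1 and of 4 marker lists, by library, with set 1 left of the dotted line. The muscle and the Schwann cell and melanocyte sums are highest in M1 and M2 (142 and 143 TPM for the latter), the macrophage sum is highest in M2 (229 TPM), and the cardiac and endothelial sums are at most 5.19 TPM in every library.

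Some members share their position or sequence with other genes. On GENCODE release M21, Acta1 (chr8:123891769-123894751) overlaps Gm20388 on the opposite strand and Cdh15 (chr8:122847966-122867397) overlaps it on the same strand. Tnnc2, Tnnc1 and Tnnt3 overlap Ube2c, Nisch and Prr33 on the opposite strand. The libraries were stranded, per the labels, but whether the counting used the strand is not given in the sources used here, so levels of these genes are less certain. Of the other members not named above for shared sequence, Chrna1 had 3.02% and Acta1 2.22% of their 50-base windows in other genes, and the rest at most 0.0675%.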

How the data were processed

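RNA from 13 primary cultures was analysed, 6 WT and 7 Fbn1 G234D/G234D, in 2 sets. Per the labels' protocols, column-purified total RNA went into a directional library kit. The build named in the submitters' processing notes is mm10. For the aligner, the counter and the annotation nothing is stated in the sources used here. The deposited values are TPM per gene, and each library summed to 1000000 over the same 25655 genes. TPM keep no read totals, so depth is unknown and no counting intervals are given.

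TPM were transformed to log2(TPM + 1), a scale that understates the change of low genes, and tested with limma 3.58.1 in R 4.3.3 (trend, robust), with p-values adjusted by Benjamini-Hochberg over all genes that reached 1 TPM in 6 or more libraries (both sets), 4 (set 1) or 2 (set 2). The scripts were tested on simulated data. Each culture was taken as a separate animal by the number in its title. The members, lists, tests and the division by animal number were chosen with earlier results of these data known. All 34 members were named, with the 2 most abundant genes of each other muscle list and the 15 genes most like the myotube mean, and further list genes were named after their values were seen.

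Replicate numbers come from the genotype labels. Deviations of same-numbered libraries from their group means correlated at 0.314, 0.236, 0.244 and 0.214 in set 1, and at -0.155 and 0.0138 in set 2. Every pair of set 1 thus passed a rule of 0.1. Same-numbered libraries of set 1 were also of the same animal group, so this rule cannot tell a pairing by number from a shared animal group. Coordinates on mm10 are those of GENCODE release M21, where 25600 of the 25655 identifiers were found. Promoters were those of RefSeq on GRCm38.p6. Alternatives were other filters, pseudocounts, scalings, blocks and left-out libraries.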

Additional observations from a re-analysis of the deposited data

Results flagged for a closer look

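In 4 of the 74 groups of 4 libraries examined (34 genes and 3 of their sums, in each genotype of set 1), a single library stood far from the other 3, and chance alone gives about 1 in 20. These were Myh8 in W1 (1.22 TPM), Neb in W1 (0.236 TPM) and Myf6 in W1 (0.0807 TPM) and in M1 (0.169 TPM), where the other libraries of the group were listed at 0.

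Counted with its sign, the genotype difference was larger in the earlier than in the later animals of set 1 for 6 members, by the limma interaction test on log2(TPM + 1). For Acta1 it was 0.62 in the earlier animals and -0.84 in the later ones. The differences of the differences were 2.77 for Tnni1, 2.26 for Tnnc1, 2.12 for Casq2, 1.80 for Tnni2, 1.53 for Actn2 and 1.47 for Acta1. Without M1 and M2, Tnni2 and Actn2 would not have met the set 1 filter. The share of all genes with such a larger difference was 1.87%, the members and the animal groups were taken with this pattern known, and 0 members passed without M1. M1 and M2 were also highest in the Schwann cell and melanocyte sum, at 142 and 143 TPM. Their macrophage sums were 172 and 229 TPM, with M5 at 176 TPM between them. The part of these in the muscle levels was not tested.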

How the results depend on the processing

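Depth is unknown, so the precision of members under 1 TPM is too, and 13 of the 34 were not tested over both sets. Each genotype group of the earlier animals held 2 cultures, and a lone remaining culture is assumed to vary like the others. Results that moved did so as follows, and the cause was not tested. With the replicate block the count of genes passing was 0 over both sets, 1 instead of 0 in set 1 and 21 instead of 1 in set 2, Myog (1.02 ± 0.18, adjusted p = 0.0295, limma) the only member among them; unblocked, its adjusted p was 0.672. The set 2 numbers did not pair the libraries (r = -0.155 and 0.0138), and that fit used only W5, W6, M5 and M6. In set 1, 4 of 8 libraries correlated best with their own number, which cannot tell a pairing by number from a shared animal group. The set 1 count was 1 with the animal groups as a covariate and 23 without M1 and M2. In set 2 it was 0 with no filter and with a filter at 10 TPM. The earlier animals gave 308 at 10 TPM, the later animals 0 with no filter and 19 with median-of-ratios scaling, and the interaction 139 with no filter. Leaving out 1 library at a time gave 0 over both sets, 0 to 2 in set 1, 0 to 14 in set 2, 0 to 1 for the set interaction, 68 to 858 in the earlier animals (the lowest without M1), 0 to 119 in the later animals and 46 to 674 for the interaction of animal group and genotype. The ratio of M1 and M2 to W1 and W2 was 4.40 for the satellite cell and myoblast sum (3.29 to 5.51 with 1 library left out, 1.78 from mean log2(TPM + 1), 2.16 without Myod1) and 3.02 for the myotube sum (2.53 to 3.51, and 5.71 without Acta1). Of 442 alternative values of the members over both sets 0 moved by more than the gene's residual SD, and of 257 in the earlier animals 10 did. Over both sets that SD holds the spread of M1 and M2 themselves, so the rule is lenient. Without M1 and M2 all 20 values counted as unmoved, though only 14 were positive. A reversal was counted only for members that passed, so none could occur over both sets, and 0 occurred in the earlier animals.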
